A study of Mus musculus with 12 samples.

Results

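The ErbB ligands are the secreted or shed growth factors that activate the ErbB family of receptor tyrosine kinases. The 9 ligand genes Hbegf, Tgfa, Ereg, Areg, Btc, Epgn, Egf, Nrg1 and Nrg4 were taken by symbol from a table of 55891 genes. Transcript levels came from mRNA sequencing of mucosal scrapings of the mouse ileum, 1 library per mouse, from 12 mice. Of these, 6 carried the genotype label Erbb3-FF and 6 the label ERBB3-dIE, and the libraries of the latter are named KO by the submitters. From litter A came 4 of the Erbb3-FF mice (numbers 3 to 6) and 3 of the ERBB3-dIE mice (4 to 6). Litter B gave the other 2 Erbb3-FF mice (1 and 2) and the other 3 ERBB3-dIE mice (1 to 3). No treatment is named. The sources used here do not give the altered part of Erbb3, any driver of a deletion, or the age or sex of the mice. The Erbb3 level itself (117 ± 23.7 TPM with Erbb3-FF, 142 ± 39.9 TPM with ERBB3-dIE, SD, n = 6 each; TPM is explained below) was not lower in ERBB3-dIE mice, so it does not check the genotype labels.

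Each ligand folds around an EGF-like domain held by 6 cysteines, and most are made as membrane-anchored precursors that metalloproteases cut free. Egf, Tgfa, Areg and Epgn bind the EGF receptor (Egfr), Hbegf, Btc and Ereg bind Egfr and ErbB4, Nrg1 binds ErbB3 and ErbB4, and Nrg4 binds ErbB4. ErbB3 has little kinase activity of its own and signals as the partner of another ErbB receptor. In the small intestine these factors are known for driving growth of the crypt and repair of the epithelium.

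The domain that makes these genes 1 family is shown for 4 members, 3 with the common spacing of cysteines and Nrg1 with a longer one. Each line gives the coding bases from the first to the last cysteine of the domain, 5′ to 3′, with the 6 cysteine codons in capitals, read from the longest open reading frame of the gene's transcripts in the GENCODE annotation of GRCm38 (for Nrg1, of 12 coding transcripts).
Tgfa: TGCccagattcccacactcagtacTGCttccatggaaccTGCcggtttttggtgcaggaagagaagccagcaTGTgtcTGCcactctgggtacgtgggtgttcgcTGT
Ereg: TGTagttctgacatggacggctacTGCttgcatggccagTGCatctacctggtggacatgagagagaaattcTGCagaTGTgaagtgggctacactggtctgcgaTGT
Btc: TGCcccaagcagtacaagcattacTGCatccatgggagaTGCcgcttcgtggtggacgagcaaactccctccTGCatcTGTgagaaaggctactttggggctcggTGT
Nrg1: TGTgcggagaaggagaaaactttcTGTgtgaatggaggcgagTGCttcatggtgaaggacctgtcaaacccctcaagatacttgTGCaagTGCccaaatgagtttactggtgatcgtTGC
In Tgfa, Ereg and Btc the domain was 36 residues long, with 7, 4, 10, 1 and 8 residues between successive cysteines, and Hbegf, Areg and Epgn had the same spacing. In Egf and Nrg4 it was 37 residues, with 5 residues in the second gap. In Nrg1 it was 40 residues, with 5 residues in the second gap and 13 in the third. Epgn, Ereg, Areg and Btc are direct neighbours among protein-coding genes, in that order (RefSeq, GRCm38.p6).

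Levels are given in TPM, transcript abundance corrected for gene length and scaled so that each library sums to 1000000. Genes can thus be compared with each other, but the read depth of a library is not kept. Between 12344 and 13364 genes reached 1 TPM per library. Ribosomal sequence (Mir6236 and Rn18s-rs5) took 10.2% and 10.8% of the TPM in Erbb3-FF mice 5 and 6, and 1.62% or less elsewhere. The 8 enterocyte markers summed to 4238 to 24589 TPM, as the label of ileal mucosa would have it. The 7 fibroblast markers summed to 7.396 to 92.7 TPM, so markers of cells beneath the epithelium were also measured. Of 8 goblet cell markers 4 rose in ERBB3-dIE mice, as did 4 of 8 markers of T cells and intraepithelial lymphocytes, and their part in the ligand values was not tested. In such bulk samples, fewer cells of a type and less RNA per cell cannot be told apart.

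Hbegf, the heparin-binding ligand, was the most abundant, with a mean of 14.7 ± 6.44 TPM over all mice (SD, n = 12). It led the 9 genes in 11 of 12 libraries, and Tgfa led in ERBB3-dIE mouse 6. Tgfa (8.72 ± 1.33 TPM), Ereg (8.05 ± 3.54 TPM) and Areg (7.07 ± 3.12 TPM) followed, and these neighbours in the order did not differ beyond their spread. Btc came next at 2.24 ± 0.56 TPM, and its highest library (3.10 TPM) lay below the lowest of Areg (3.27 TPM). Nrg4 (1.11 ± 0.56 TPM) and Nrg1 (0.79 ± 0.96 TPM) overlapped, and Egf (0.38 ± 0.18 TPM) and Epgn (0.23 ± 0.14 TPM) had the lowest means and overlapped too. The place of Nrg1 depends on the ERBB3-dIE mice of litter A: in Erbb3-FF mice its mean of 0.273 TPM lay below the 0.328 TPM of Egf, within their spread. The 4 leading ligands made up 80.9% to 94.1% of the summed ligand TPM of a library. The authors' deposited table gives mean normalized counts of 377 for Hbegf, 439 for Tgfa and 363 for Ereg, but only 79.1 for Areg and 66.2 for Btc. Those of Nrg1 (31.9), Nrg4 (15.7), Egf (14.1) and Epgn (2.80) were lower still, so values of these 4 rest on few reads.

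**Figure D1:**
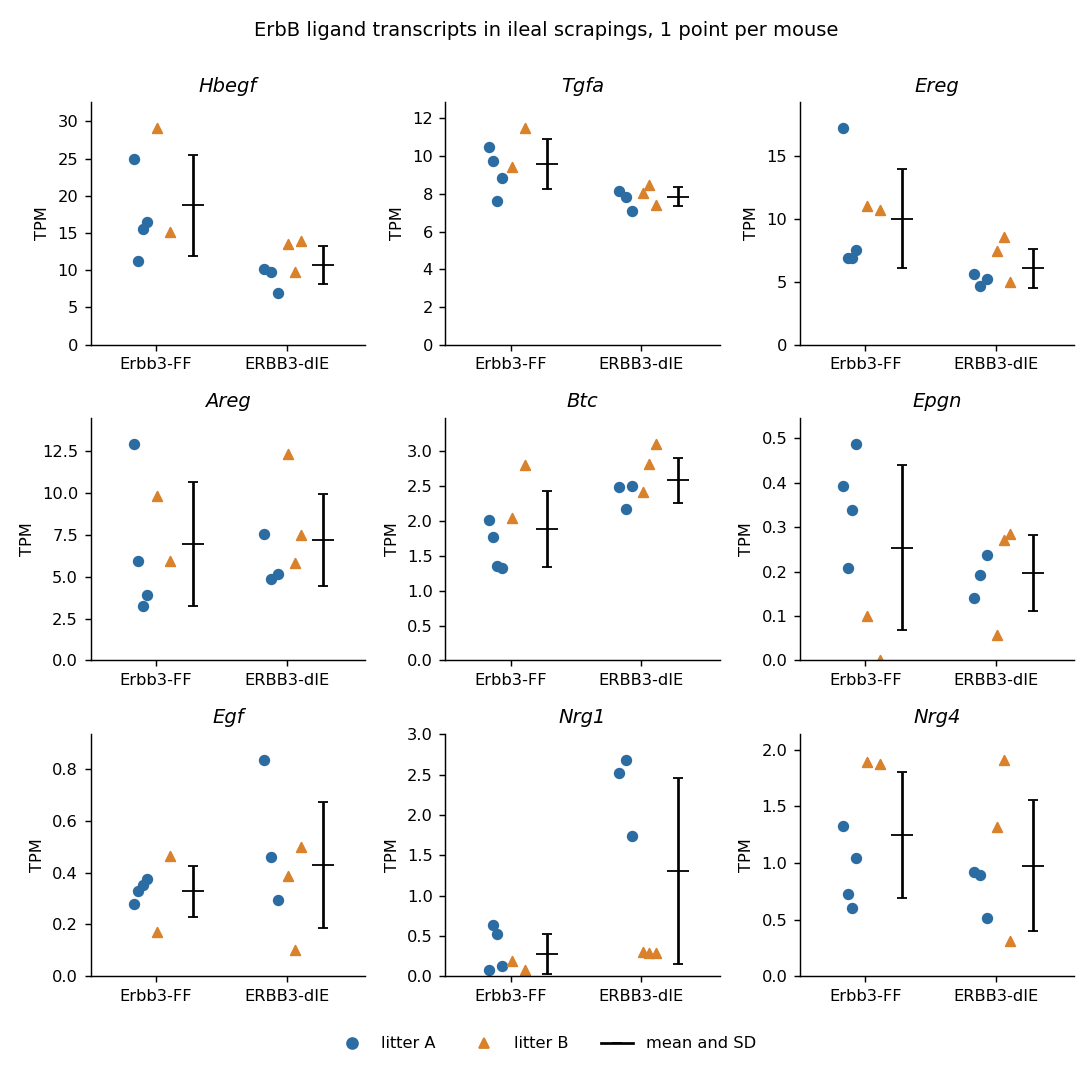
TPM of each of the 9 ligand genes (vertical axis, from 0, own scale per gene) by genotype (horizontal axis), 1 point per mouse, circles for litter A and triangles for litter B, with bars for the mean and SD of 6 mice. Hbegf, Tgfa and Ereg sit lower in ERBB3-dIE mice and Btc higher, each with some overlap, while Nrg1 is at 1.73 to 2.68 TPM in the 3 ERBB3-dIE mice of litter A and no higher than 0.64 TPM elsewhere.

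In the comparison of genotypes, 1 of the 6 ligand genes that passed the filter on low values (at least 1 TPM in at least 6 libraries) fell in ERBB3-dIE mice and none rose. This was Hbegf, to 57.1% of its Erbb3-FF mean. Over all 12605 tested genes 5.36% were called and 3.7% were called as lower (limma on log2(TPM + 0.5) with litter as a term, Benjamini-Hochberg adjusted p under 0.05). Unadjusted limma p-values were 0.00251 for Hbegf, 0.00911 for Ereg, 0.0167 for Tgfa, 0.0323 for Btc, 0.215 for Nrg4 and 0.875 for Areg. The share of all genes with an unadjusted p under 0.05 was not counted, so no excess is read from these. The median log2 difference of the 6 was −0.32, and that of all tested genes was 0.00. The ranges of the genotypes overlapped for all 9 genes, whereas they were apart for 2.44% of the tested genes.

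Hbegf was at 29.1, 15.1, 24.9, 11.3, 15.5 and 16.5 TPM in Erbb3-FF mice 1 to 6. In ERBB3-dIE mice 1 to 6 it was at 13.5, 9.82, 13.9, 10.1, 9.78 and 6.97 TPM. The means were 18.7 ± 6.76 and 10.7 ± 2.60 TPM (SD, n = 6 each), and the ranges overlapped only because Erbb3-FF mouse 4 lay below ERBB3-dIE mice 1 and 3. The log2 difference was −0.81 (SE 0.21, 95% interval −1.27 to −0.35, limma adjusted p = 0.0484). Within litter A the Erbb3-FF values started at 11.3 TPM and the ERBB3-dIE values ended at 10.1 TPM, and within litter B they started at 15.1 and ended at 13.9 TPM, so the genotypes did not overlap in either litter. The level in ERBB3-dIE mice was 52.7% of that in Erbb3-FF mice in litter A and 56.1% in litter B.

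The Hbegf call sat at the threshold. Without 1 library the adjusted p ran from 0.0377 to 0.118, and the call held without Erbb3-FF mouse 2 or 4 and was lost without any 1 of the other 10 mice, the log2 difference staying between −0.96 and −0.68. Of the 7 B cell markers 2 passed the filter. The 7 markers summed to 299, 138 and 118 TPM in Erbb3-FF mice 1, 2 and 3. In Erbb3-FF mice 4, 5 and 6 the markers summed to 4.54, 8.04 and 4.52 TPM, beside 5.47 to 16.03 TPM with ERBB3-dIE. With their mean log2 level as a covariate the difference was −0.50 (adjusted p = 0.396), and with the enterocyte markers it was −0.56 (adjusted p = 0.463). Calls over all genes fell as well, from 209 higher and 467 lower to 20 and 28 with the B cell covariate and to 17 and 14 with the enterocyte covariate. The authors' deposited table, whose test is their own, gives Hbegf a log2 fold change of −0.79 with an adjusted p of 0.000574.

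Ereg encodes epiregulin, a ligand that binds its receptors with lower affinity than EGF. It was at 10.99, 10.7, 17.2, 6.90, 6.86 and 7.56 TPM in Erbb3-FF mice 1 to 6. In ERBB3-dIE mice 1 to 6 it was at 7.43, 8.55, 4.95, 5.65, 4.68 and 5.20 TPM. Litter A Erbb3-FF mice 4, 5 and 6 lay among the ERBB3-dIE mice of litter B, but in neither litter did the genotypes overlap. The log2 difference was −0.69 (SE 0.22, 95% interval −1.17 to −0.21) and missed the threshold over all genes (limma adjusted p = 0.0931). In the authors' deposited table it has a fold change of −0.67 on the log2 scale and an adjusted p of 0.00781. The summed enterocyte markers were 9769 to 24589 TPM with Erbb3-FF against 4238 to 17856 TPM with ERBB3-dIE, and 3 of their 7 tested members fell and none rose. With their mean log2 level as a covariate the Ereg difference was 0.00 (adjusted p = 1.000). The 7 villus tip markers summed to 258 to 581 TPM with Erbb3-FF against 121 to 215 TPM with ERBB3-dIE, with 4 of 7 lower and none higher. Within litter A the enterocyte sums were 9769 TPM or more with Erbb3-FF and 5966 TPM or less with ERBB3-dIE. Within litter B they were 19813.5 TPM or more and 17856 TPM or less. The enterocyte covariate thus follows genotype within litters and cannot be separated from it. With it, calls over all genes fell to 17 higher and 14 lower. The part of these cells in the Ereg difference was not tested.

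Tgfa encodes transforming growth factor alpha, a ligand of Egfr made by the epithelium itself. It was the least variable ligand, with a coefficient of variation of 13.9% in Erbb3-FF and 6.47% in ERBB3-dIE mice. The Erbb3-FF mice 1 to 6 had 9.41, 11.5, 10.5, 9.73, 7.63 and 8.82 TPM. The ERBB3-dIE mice 1 to 6 had 8.05, 8.47, 7.42, 8.15, 7.85 and 7.09 TPM. All Erbb3-FF mice but mouse 5 lay above every ERBB3-dIE mouse, and in litter B the genotypes did not overlap. The log2 difference of −0.29 (SE 0.10, 95% interval −0.51 to −0.06) did not pass over all genes (limma adjusted p = 0.128), nor did the value in the authors' deposited table (−0.27, adjusted p = 0.0676).

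Btc encodes betacellulin and had the largest positive difference among the 6 ligand genes past the filter, though it did not pass the test. The Erbb3-FF mice 1 to 6 had 2.04, 2.81, 2.01, 1.77, 1.36 and 1.33 TPM. The ERBB3-dIE mice 1 to 6 had 2.41, 2.81, 3.10, 2.49, 2.18 and 2.51 TPM. Only Erbb3-FF mouse 2 reached into the ERBB3-dIE range. The means were 1.89 ± 0.55 and 2.58 ± 0.32 TPM (SD, n = 6 each), with a log2 difference of 0.34 (SE 0.14, 95% interval 0.03 to 0.65, limma adjusted p = 0.180). In the authors' deposited table Btc has a log2 fold change of 0.50 and an adjusted p of 0.0218. Within litter A the genotypes did not overlap (at most 2.01 against at least 2.18 TPM), while in litter B they did.

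Areg encodes amphiregulin, which binds Egfr and is also made by immune cells during tissue repair. It varied widely between mice within each genotype. The Erbb3-FF mice 1 to 6 had 9.78, 5.91, 12.9, 5.95, 3.27 and 3.88 TPM. The ERBB3-dIE mice 1 to 6 had 12.3, 5.79, 7.48, 7.53, 4.87 and 5.13 TPM. Erbb3-FF mouse 3 was highest for Areg, as it was for Ereg. The log2 difference was 0.05 (SE 0.31, 95% interval −0.62 to 0.72, limma adjusted p = 0.945), so changes inside that interval could not be resolved.

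**Figure D2:**
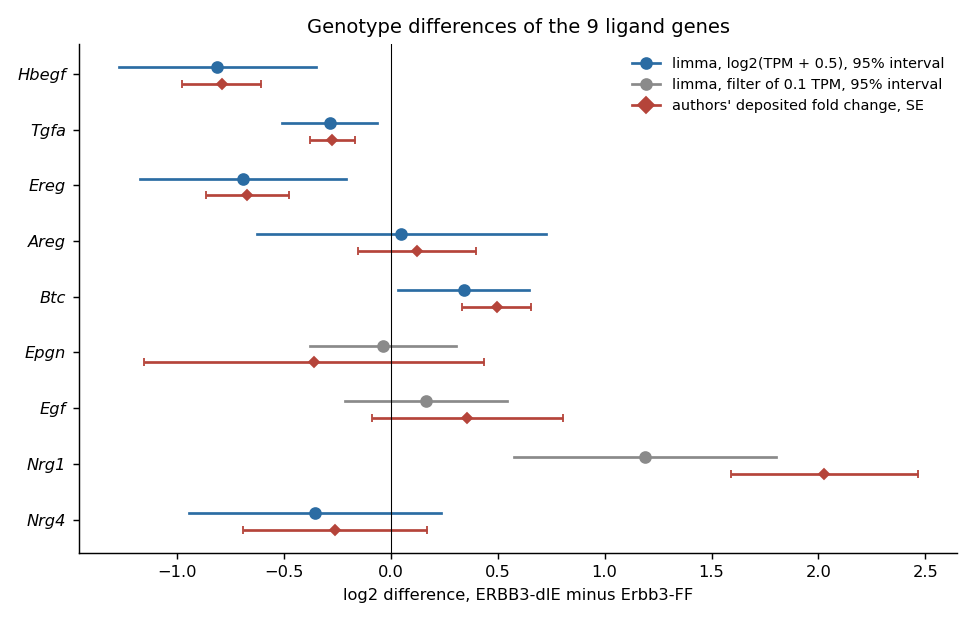
Log2 difference of each ligand gene, ERBB3-dIE minus Erbb3-FF (horizontal axis), from limma with its 95% interval (circles; grey for the 3 genes fitted with the lower filter of 0.1 TPM) and from the authors' deposited table with its SE (diamonds). The intervals of Hbegf, Tgfa and Ereg lie below 0 and those of Btc and Nrg1 above, of which only Hbegf passed over all genes at the filter of 1 TPM.

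Of the neuregulins, Nrg1, a ligand of ErbB3 itself, had the largest ratio between genotypes of the 9 genes: its mean in ERBB3-dIE mice was 4.77 times that in Erbb3-FF mice. The Erbb3-FF mice 1 to 6 had 0.193, 0.0739, 0.0810, 0.641, 0.523 and 0.127 TPM. In ERBB3-dIE mice 1 to 6 it was at 0.304, 0.292, 0.292, 2.52, 2.68 and 1.73 TPM. The 3 high values were those of the ERBB3-dIE mice of litter A. In that litter the genotypes did not overlap, and the ratio of means was 6.74. In litter B they did not overlap either, but all 5 values were low and the ratio was 2.22. A further identifier with the symbol Nrg1 (ENSMUSG00000118541) was listed at 0 in all libraries and is not used here.

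With 3 libraries at 1 TPM or more, Nrg1 did not pass the filter and had no value in the limma fit at 1 TPM. The exact 2-sided permutation test over all relabellings of the 12 mice gave a p of 0.0693 for a difference of 1.00 in mean log2(TPM + 0.5). Relabelling within litters gave a p of 0.00286 for a difference of 1.06 (exact, 2-sided), which is the smallest that 350 relabellings can give. With a filter of 0.1 TPM in 6 libraries, limma gave a log2 difference of 1.19 (SE 0.28, 95% interval 0.57 to 1.80, adjusted p = 0.0432), and 3.16% of the 17410 genes then tested were called. With no filter the same difference was not called (adjusted p = 0.0842). The difference between litters, B minus A, was −1.12 in that fit (adjusted p = 0.0468; 4.84% of genes called), and that of the genotype difference between litters was −1.45 (95% interval −2.32 to −0.58, adjusted p = 0.187). In the authors' deposited table Nrg1 has a log2 fold change of 2.03 and an adjusted p of 0.000133. That table calls 4 of the 8 ligand genes to which it gives an adjusted p (Hbegf, Ereg, Btc and Nrg1), and it calls 12.6% of all genes with one.

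Nrg1 is known from stromal cells of the gut, so markers of those cells are given beside it. The fibroblast markers summed to 50.8 to 92.7 TPM in the ERBB3-dIE mice of litter A and to 7.396 to 39.4 TPM in its Erbb3-FF mice. In litter B the order was the opposite, with 9.15 to 18.8 TPM in ERBB3-dIE and 28.01 to 62.1 TPM in Erbb3-FF mice. Nrg1 was low in all mice of that litter (0.292 to 0.304 TPM with ERBB3-dIE, 0.0739 and 0.193 TPM with Erbb3-FF). The macrophage and dendritic cell markers summed to 88.1 to 108 TPM against 45.9 to 77.3 TPM in litter A and to 52.8 to 55.5 TPM against 143 to 257 TPM in litter B, ERBB3-dIE mice given first. In ERBB3-dIE mice 4, 5 and 6 the smooth muscle markers summed to 168, 151 and 66.9 TPM, against 66.4 to 108 TPM in the Erbb3-FF mice of that litter. In litter B they summed to 46.9 to 49.5 TPM against 84.0 to 93.7 TPM, ERBB3-dIE mice given first. None of the 5 tested fibroblast markers was called, and of 6 tested smooth muscle markers 1 fell and 0 rose. Those calls come from the fit over both litters, where differences of opposite sign offset each other, so they do not describe either litter. The part of these cells in the Nrg1 values was not tested.

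Nrg4, which signals through ErbB4, averaged 1.24 ± 0.56 TPM with Erbb3-FF against 0.98 ± 0.57 TPM with ERBB3-dIE (SD, n = 6 each). It reached 1 TPM in 6 libraries and so passed the filter exactly. The values spanned 0.603 to 1.89 and 0.312 to 1.91 TPM and overlapped fully. The log2 difference was −0.35 (SE 0.27, 95% interval −0.94 to 0.24, limma adjusted p = 0.488). Its only receptor among those of the family, Erbb4, was listed at 0 in all 12 libraries.

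Egf and Epgn stayed below 1 TPM in every library. Egf lay between 0.172 and 0.462 TPM in Erbb3-FF mice (median 0.340) and between 0.101 and 0.834 TPM in ERBB3-dIE mice (median 0.423). Its difference in mean log2(TPM + 0.5) was 0.13 (exact 2-sided permutation p = 0.461). Epgn, which encodes epithelial mitogen, lay between 0 (Erbb3-FF mouse 2) and 0.487 TPM (median 0.273) and between 0.0568 and 0.284 TPM (median 0.215), with a difference of −0.08 (exact 2-sided permutation p = 0.628). At these levels a change could not be resolved.

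The design holds both genotypes in each litter, so the genotype difference could be read within litters. Hbegf, Ereg and Nrg1 had ranges that did not overlap, in the same direction, in each litter. That was 3 of 9 ligand genes, beside 5.22% of the 19442 genes above 0 in at least 6 libraries. The differences in mean log2(TPM + 0.5) in litters A and B were −0.85 and −0.75 for Hbegf, −0.73 and −0.63 for Ereg, −0.23 and −0.36 for Tgfa, and 0.46 and 0.17 for Btc. For Epgn they had opposite signs (−0.30 and 0.35). The interaction of litter and genotype was called for 0 of the 6 tested ligand genes and for 0 of all tested genes (0%, limma), and unadjusted p-values were under 0.05 for 0 of the 6 and for 1174 of all genes. The intervals were wide: for Hbegf the litter B difference exceeded the litter A difference by 0.10, with a 95% interval of −0.89 to 1.09.

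**Figure D3:**
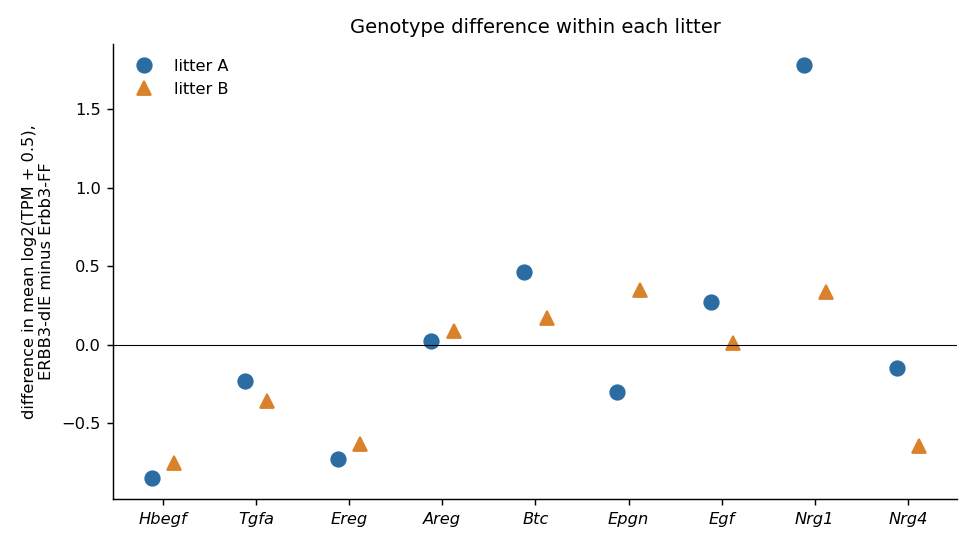
Difference in mean log2(TPM + 0.5), ERBB3-dIE minus Erbb3-FF (vertical axis), for each ligand gene (horizontal axis) within litter A (circles, 4 against 3 mice) and litter B (triangles, 2 against 3 mice). Hbegf, Tgfa, Ereg and Nrg4 are below 0 in both litters, Epgn changes sign, and Nrg1 is at 1.78 in litter A and 0.34 in litter B.

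Between the litters, 0 of the 6 tested ligand genes were called, against 8.55% of all tested genes (limma, genotype as a term). All 6 were higher in litter B, with a median log2 difference of 0.36 beside 0.05 for all genes. Btc had the smallest p of the 6 (log2 difference 0.31, 95% interval 0.0016 to 0.62, limma unadjusted p = 0.0490, adjusted p = 0.168). Nrg4 had a difference of 0.51 (adjusted p = 0.234), Areg of 0.44 (0.368) and Hbegf of 0.40 (0.231), each with an interval that includes 0. Mitochondrial transcripts took 13.6% to 22.1% of the TPM in litter A and 7.94% to 15.0% in litter B. With mitochondrial and ribosomal sequence removed, all 6 differences were smaller (0.28 for Hbegf, 0.20 for Ereg, −0.013 for Tgfa). The median of all genes was then −0.08. Both Erbb3-FF mice of litter B had Nrg4 at 1.87 and 1.89 TPM, above the 0.603 to 1.32 TPM of the Erbb3-FF mice of litter A. In ERBB3-dIE mice the litters overlapped, at 0.312 to 1.91 TPM in litter B and 0.510 to 0.923 TPM in litter A. The 3 genes under the filter had lower means in litter B, at 0.19 (Nrg1), 0.50 (Epgn) and 0.78 (Egf) times those of litter A (exact 2-sided permutation p = 0.0833, 0.0732 and 0.376).

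The mixture of ligands can be read as shares of the summed TPM of the 9 genes. The sum averaged 49.3 ± 14.2 TPM with Erbb3-FF against 37.3 ± 5.41 TPM with ERBB3-dIE (SD, n = 6 each), and the ranges of 36.4 to 69.6 and 29.7 to 45.8 TPM overlapped. Hbegf made up 37.7 ± 6.37% of it in Erbb3-FF and 28.4 ± 4.44% in ERBB3-dIE mice. Ereg went from 20.02 ± 2.80% to 16.3 ± 3.44%, Areg from 13.4 ± 3.78% to 18.9 ± 4.49%, Btc from 3.94 ± 1.11% to 7.03 ± 1.19% and Tgfa from 20.4 ± 4.57% to 21.3 ± 2.42%. Nrg1 held 0.67 ± 0.71% and 3.77 ± 3.39%. Shares of a sum move against each other by construction, and they are given here without a test.

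**Figure D4:**
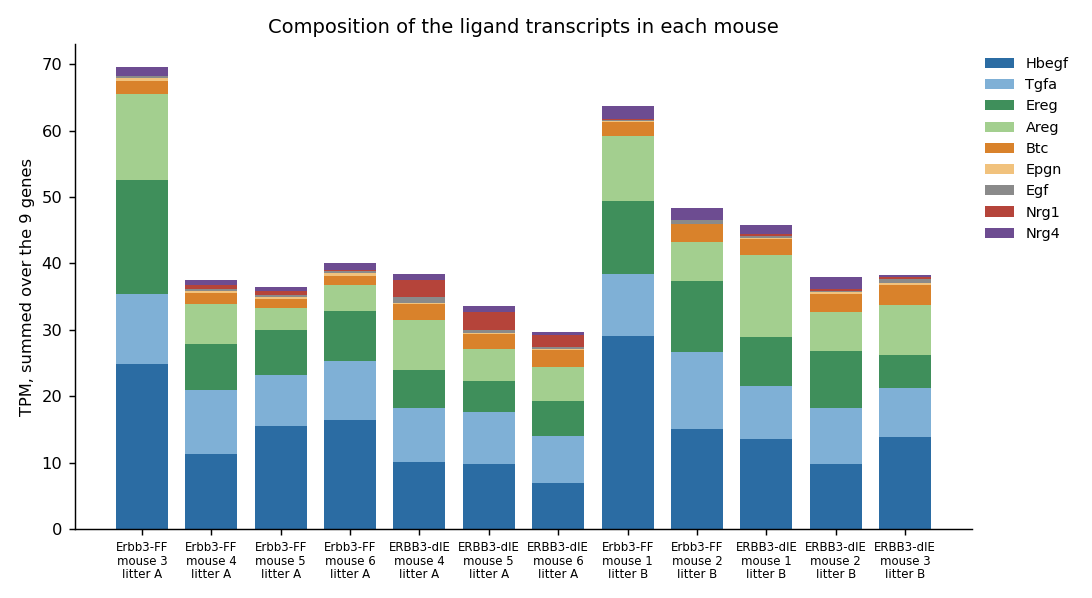
Stacked TPM of the 9 ligand genes (vertical axis) in each of the 12 mice (horizontal axis, litter A first, Erbb3-FF before ERBB3-dIE within a litter). The tallest bars are Erbb3-FF mouse 3 (69.6 TPM) and mouse 1 (63.6 TPM), the shortest is ERBB3-dIE mouse 6 (29.7 TPM), and Nrg1 is visible mainly in ERBB3-dIE mice 4, 5 and 6.

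The rest of the pathway is given from lists of receptors, of shedding and export proteins, of receptor inhibitors and of genes induced by ERK signalling. Of 39 tested members 1 fell and 0 rose, beside 3.7% of all tested genes called as lower and 5.36% called in either direction. The member that fell was Errfi1, which encodes an inhibitor that binds the ErbB kinase domain, from 23.8 ± 3.78 to 14.3 ± 3.56 TPM (log2 difference −0.73, limma adjusted p = 0.0298). Its call was not checked with libraries left out or with covariates. The next smallest p among the 12 receptor inhibitors was that of Socs4 (−0.34, adjusted p = 0.0592), chosen for mention after its value was seen. The median of that list was −0.05.

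Of the receptors, Erbb3 had a log2 difference of 0.16 (adjusted p = 0.402), Erbb2, the preferred partner of ErbB3, of 0.06 (adjusted p = 0.745) and Egfr of −0.10 (adjusted p = 0.850). Their levels were far apart: 5.55 ± 1.93 TPM for Egfr against 46.1 ± 4.43 TPM for Erbb2 in Erbb3-FF mice. Between litters Erbb3 was 0.57 higher in litter B on the log2 scale (adjusted p = 0.0187). Of 13 tested genes of ligand shedding and export, 0 passed, and the median was −0.09. Adam17, the main sheddase of Hbegf, Tgfa, Areg and Ereg, had a difference of 0.12 (adjusted p = 0.683), and Adam10, which cuts Egf and Btc, of −0.16 (adjusted p = 0.498). The smallest p in that list was that of Mep1a, a brush border metalloprotease (−0.66, adjusted p = 0.102). Of 11 tested ERK feedback genes 0 passed (median −0.02), with the smallest p for the phosphatase gene Dusp6, at 40.4 ± 18.5 and 25.1 ± 6.57 TPM (−0.65, adjusted p = 0.182). The largest difference in that list went the other way, for Etv5 (0.86, adjusted p = 0.238), chosen for mention after its value was seen. Etv5 was at 4.85 to 8.11 TPM in the ERBB3-dIE mice of litter A and at 1.03 to 2.44 TPM in those of litter B. Unadjusted p-values were 0.0108 for Mep1a and 0.0328 for Dusp6.

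**Figure D5:**
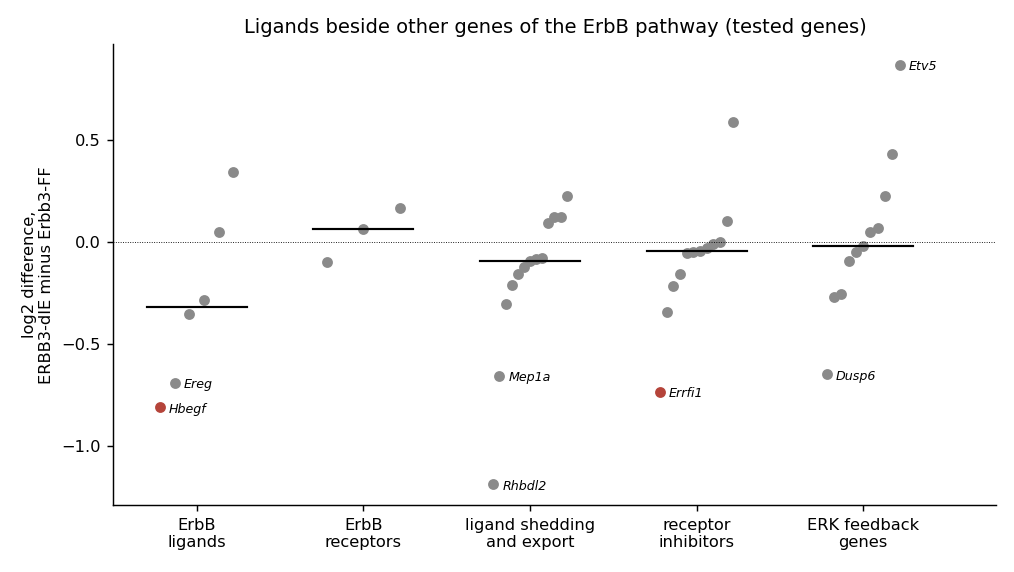
Log2 difference, ERBB3-dIE minus Erbb3-FF (vertical axis), of each tested gene of 5 lists (horizontal axis), with a bar at each list's median; red points passed the limma test over all genes. Hbegf and Errfi1 are the red points, and the ligand median of −0.32 is the lowest of the 5.

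The genes whose log2(TPM + 0.5) was most like that of each ligand over the 12 libraries were named by Pearson's r among 12604 other tested genes. Each was chosen for its r, so the permutation p-values (100000 permutations, 2-sided) only describe it. For Hbegf these were Fos, an immediate early transcription factor gene, Fyb2 and Lpcat4, with r of 0.905, 0.905 and 0.902. For Fos the permutation p was 4e-05 (0.123 adjusted over all genes), Spearman's rho was 0.916 (permutation p = 1e-04), and r was 0.853 without the 2 mice farthest from the Hbegf median. After genotype and litter were taken out, r between Hbegf and Fos was 0.809. Fyb2 fell in ERBB3-dIE mice (−0.99, limma adjusted p = 0.027), while Fos had a difference of −0.78 (adjusted p = 0.0875).

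Ereg was most like Rdh16, a retinol dehydrogenase gene, Cdk11b and the growth arrest gene Gadd45a, with r of 0.936, 0.934 and 0.933. For Rdh16 the permutation p was 1e-05, the smallest that 100000 permutations can give (0.00467 adjusted over all genes), rho was 0.937 (permutation p = 3e-05), and r was 0.888 without the 2 farthest mice. Tgfa was most like Abcd3, Slc9a2 and the cholesterol transport gene Npc1 (r of 0.952, 0.933 and 0.929). For Abcd3, a peroxisomal transporter gene, the permutation p was 1e-05 (0.0420 adjusted), rho was 0.881 (permutation p = 4e-04) and r was 0.882 without the 2 farthest mice. Areg was most like Mgst2, Cstb and Pet100 (r of 0.943, 0.927 and 0.916). For Mgst2 the permutation p was 1e-05 (0.126 adjusted), rho was 0.881 (permutation p = 3e-04) and r was 0.887 without the 2 farthest mice. Btc was most like Dpysl2, Elof1 and Cox7c (r of 0.903, 0.903 and 0.902). For Dpysl2 the permutation p was 2e-04 (0.159 adjusted), rho was 0.797 (permutation p = 0.00274), and r fell to 0.711 without the 2 farthest mice and to 0.668 after genotype and litter were taken out. No gene was among the 3 most like more than 1 ligand.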

How the data were processed

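The authors deposited 1 table of 55891 genes, with TPM per library computed by the authors (each library sums to 1000000) and columns of their own test. Per the file headers these are the mean normalized count (a signal), the authors' log2 fold change with its standard error, a Wald score, and p-values, raw and adjusted, that the authors computed. Salmon 1.10.0, CASAVA, DESeq2 and the build GRCm39 are named in the submitters' processing notes. The sources used here do not give the annotation, filters or design. RNA came from scraped mucosa, and libraries from a stranded mRNA kit, per the labels' protocols.

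The 12605 genes that reached 1 TPM in 6 or more libraries were tested on log2(TPM + 0.5) with limma 3.58.1 in R 4.3.3 (variance trend, litter and genotype as terms; the interaction in a second fit), with Benjamini-Hochberg adjustment over all tested genes and a threshold of 0.05. SE is the moderated standard error, and differences on this scale understate changes of low genes. The 3 ligand genes under the filter were tested by exact permutation. Libraries correlated at 0.878 to 0.955, so none was a copy. Mouse numbers recur in both genotypes, but same-numbered mice deviated together with correlations of 0.07 to 0.36 and 1 such pair came from different litters, so the numbers were not used as pairs. The fit was tested on simulated data. Members, gene lists and the rule for named genes (ligands, receptors, pathway genes past the threshold or with the smallest p, and the 3 most like each ligand of at least 2 TPM) were chosen with earlier results of these data known. Adam17 and Adam10 were named for their role, and Socs4 and Etv5 for their values, beside the rule. Annotation at hand was of another build, so no coordinates are given. Figures used matplotlib 3.10.9.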

Additional observations from a re-analysis of the deposited data

Results flagged for a closer look

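Areg in ERBB3-dIE mouse 1 was at 12.3 TPM, apart from the other 5 mice of its genotype, of which the nearest had 7.53 TPM. The gap was 0.644 of the group's range, above Dixon's 95% critical value for 6 samples. It was the only such sample among 18 groups of ligand values checked, and chance gives about 1 in 20.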

How the results depend on the processing

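The count of ligand genes called between genotypes, 1 as reported, was 0 with no filter, without a litter term, in litter A or litter B alone, with the B cell or enterocyte covariate, without Erbb3-FF mice 5 and 6 and under permutation within litters, and 4 in the authors' deposited test. Calls over all genes were also few: 4 higher and 2 lower in litter A alone, and 6 and 9 in litter B alone. Under permutation within litters 0 of 12605 genes were called, where 350 relabellings give no p under 0.00286. A ligand count of 0 in those settings says little about the ligands. The ligand count ran from 0 to 1 without 1 library. The filter of 0.1 TPM gave 1, with Nrg1 in place of Hbegf (Hbegf adjusted p = 0.0609), and library weights gave 1, with Ereg (−0.56, adjusted p = 0.0459) in place of Hbegf (−0.67, 0.0522). The count between litters, 0 as reported, was 1 with the filter of 0.1 TPM (Nrg1) and ran from 0 to 1 without 1 library: Ereg (0.46) was called without Erbb3-FF mouse 3 and Nrg4 (0.75) without ERBB3-dIE mouse 3. The count for the interaction stayed at 0 in every setting run.

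The Hbegf genotype difference kept its sign in all settings (−0.96 to −0.50). So did those of Tgfa (−0.37 to −0.21), Btc (0.17 to 0.50), Nrg4 and Nrg1. Some differences changed sign, and none of the values of the other sign passed a test. They were Areg between genotypes (−0.079 to 0.26 without 1 library, −0.24 without Erbb3-FF mice 5 and 6), Ereg with the enterocyte covariate (3.3e-06, from −0.69), Epgn (0.35 in litter B, 0.021 under permutation within litters, 0.070 without Erbb3-FF mice 5 and 6, −0.20 to 0.00075 without 1 library) and Tgfa between litters (−0.013 when mitochondrial and ribosomal sequence were removed). For the interaction these were Btc (0.090, quantile normalization), Tgfa (0.12 with it, 0.030 with median-of-ratios scaling), and Hbegf (−0.078), Ereg (−0.058) and Areg (−0.13) with library weights. Without 1 library the interaction ran from −0.36 to 0.56 for Hbegf, −0.21 to 0.31 for Ereg, −0.31 to 0.41 for Areg and −0.27 to 0.0066 for Tgfa. The causes were not tested.

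With mouse number as a replicate block the Hbegf difference was −0.74 (adjusted p = 0.0306) and 1 ligand gene was called, so no ligand call changed; over all genes 217 were higher and 538 lower, against 209 and 467. Of the 6 numbers, 2 had their own number as the best match. Settings that change only the limma fit were not run for the 3 genes under the filter. The Nrg1 difference depended on the pseudocount, with 1.62 at 0.1 and 0.72 at 1 (exact permutation p = 0.0498 and 0.0714). The number of mice, and for Nrg1, Nrg4, Egf and Epgn the few reads, limit the precision.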

Other observations

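The other 2 neuregulin genes were barely present. Nrg2 averaged 0.34 ± 0.33 TPM with Erbb3-FF against 0.13 ± 0.09 TPM with ERBB3-dIE (SD, n = 6 each), and Nrg3 was listed at 0 in 10 of 12 libraries.

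Spread between mice differed among the ligands. The coefficient of variation among Erbb3-FF mice was 90.0% for Nrg1 and 72.8% for Epgn, against 13.9% for Tgfa. Among ERBB3-dIE mice Btc was also tight, at 12.6%, while Nrg1 was at 88.2%, with its 3 high values in litter A.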
